A study of Mus musculus with 6 samples.

Results

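The 28 genes described here encode enzymes of cholesterol synthesis, the proteins that control the transcription factor SREBP2, and proteins of lipoprotein uptake and sterol transport. They were taken by their GENCODE M21 symbols from the 54532 genes with an Ensembl identifier in the deposited table of liver read counts, and 27 of them passed the filter on low counts. The list holds 9 genes of the early steps from acetyl-CoA to squalene, 11 of the late steps from squalene to cholesterol, 4 of SREBP2 control and 4 of uptake and transport. Ggps1 is counted with the early genes, although its step lies on a side branch. The list does not hold every enzyme of the pathway. All 6 libraries were made from the livers of WT male C57BL/6J mice, 8 weeks old when assigned, which received a high-fat diet (HFD) for 4 weeks and then for 4 further weeks. The HFD group (replicates 1 to 3, n = 3) received the diet with no supplement, and the HFD+allantoin group (replicates 4 to 6, n = 3) also received allantoin, a product of uric acid breakdown, in the drinking water during the last 4 weeks. The labels name concentrations of 0.06 and 0.3 mg/mL without assigning either to a library, and the study describes the sequenced livers as those of its higher-dose group, which its methods define as 0.3 mg/mL. The question was how the liver's cholesterol genes differ when allantoin is added to a high-fat diet.

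Cholesterol is built from acetyl-CoA by way of mevalonate and activated isoprene units to squalene, which is then oxidised, closed to lanosterol and trimmed to cholesterol. The liver is a main site of this synthesis. SREBP2 is held in the endoplasmic reticulum by its escort SCAP and the INSIG proteins while sterols are plentiful. When sterols fall, SCAP carries SREBP2 to the Golgi, where proteases release the fragment that enters the nucleus and binds sterol regulatory elements in the promoters of the pathway's genes, usually next to sites for NF-Y and Sp1.

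Library totals ran from 11326372 to 14601457 counts. Genes of the mitochondrial chromosome took 17.9% to 36.5% of counts in HFD and 6.92% to 11.4% in HFD+allantoin, and the TMM scaling factors were 0.756 to 0.951 and 1.12 to 1.19. Scaling by library size alone moved the median log2 fold change of all genes up by 0.41, so the values below are relative to the TMM scale. HFD replicate 2 stood apart in adipocyte markers, with a summed level over 6 genes of 582 CPM (counts per 1000000 of the TMM-scaled library size) against 101 and 114 in the other HFD libraries and 49.3 to 135 in HFD+allantoin, and the defining markers Adipoq, Plin1 and Lep were at 0 in the other HFD libraries. HFD replicate 3 had the highest summed level of 5 cholangiocyte markers, 159 CPM against 34.3 and 43.1 in the other HFD libraries and 21.7 to 76.7 in HFD+allantoin, of which Spp1 made up 110 CPM. Of these 5 genes, Sox9 was called lower (adjusted p = 0.00735), and Krt7 and Epcam were too low to be tested. Hepatocyte markers summed to 90664 to 92549 CPM in HFD and 76611 to 104990 CPM in HFD+allantoin (2 of 6 called lower), stellate cell markers to 133 to 203 and 338 to 382 CPM (5 of 5 called higher), and macrophage markers to 91.7 to 217 and 250 to 280 CPM (3 of 5 called higher). The part of these differences in the values below was not tested.

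The promoters of 23 of the 28 genes were found in the RefSeq table (GRCm38.p6, 250 bases before to 50 after each start). Fdps, Fdft1, Sqle, Stard4 and Npc1 had no window there, so the shares below do not cover them. A CCAAT box, the NF-Y motif, was present on either strand in 21 of 23 genes (91.3%), against 42.9% of the tested genes with a window. GGGCGG, the Sp1 motif, was also present in 21 of 23 genes (91.3%), against 66.8% of tested genes. The sterol regulatory element core TCACNCCAC was found in 1 of 23 genes, Hmgcs1, against 1.44% of tested genes, and its shorter form CACNCCAC, which the longer one contains, in 3 of 23 genes (Acat2, Hmgcs1 and Insig1), against 7.58% of tested genes. These matches describe the letters of the window and are not binding sites. The 250 bases before the start are shown, 5′ to 3′ on the gene's strand, for Hmgcs1, which holds the longer core, and for the genes with a promoter in the table that were called in the comparison below. Capitals mark CACNCCAC and CCAAT on either strand (CCAAT reads ATTGG on the other strand, and CACNCCAC reads GTGGNGTG). The windows are chr13:119690101-119690350 (plus strand) for Hmgcs1, chr17:12960726-12960975 (minus) for Acat2, chr5:114444019-114444268 (plus) for Mvk, chr13:8885356-8885605 (plus) for Idi1 and chr13:45389492-45389741 (plus) for Mylip.
Hmgcs1: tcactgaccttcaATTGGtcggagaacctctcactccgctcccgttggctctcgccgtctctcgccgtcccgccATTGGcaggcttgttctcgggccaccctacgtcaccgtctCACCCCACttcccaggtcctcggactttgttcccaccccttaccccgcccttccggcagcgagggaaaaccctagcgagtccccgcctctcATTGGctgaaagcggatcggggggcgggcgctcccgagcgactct
Acat2: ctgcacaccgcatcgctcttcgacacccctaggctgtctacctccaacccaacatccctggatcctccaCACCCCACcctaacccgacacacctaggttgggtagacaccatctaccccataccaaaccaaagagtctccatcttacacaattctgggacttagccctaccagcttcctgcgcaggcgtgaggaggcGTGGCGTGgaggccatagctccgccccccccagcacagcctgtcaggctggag
Mvk: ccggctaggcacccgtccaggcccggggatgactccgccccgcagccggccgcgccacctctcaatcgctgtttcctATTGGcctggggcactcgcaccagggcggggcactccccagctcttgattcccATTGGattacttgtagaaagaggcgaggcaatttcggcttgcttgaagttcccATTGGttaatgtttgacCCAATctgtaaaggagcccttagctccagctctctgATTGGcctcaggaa
Idi1: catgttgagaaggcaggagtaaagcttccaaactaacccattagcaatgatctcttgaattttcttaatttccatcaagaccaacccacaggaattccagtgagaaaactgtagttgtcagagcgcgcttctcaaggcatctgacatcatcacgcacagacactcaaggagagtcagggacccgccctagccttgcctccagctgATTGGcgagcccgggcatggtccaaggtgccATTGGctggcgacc
Mylip: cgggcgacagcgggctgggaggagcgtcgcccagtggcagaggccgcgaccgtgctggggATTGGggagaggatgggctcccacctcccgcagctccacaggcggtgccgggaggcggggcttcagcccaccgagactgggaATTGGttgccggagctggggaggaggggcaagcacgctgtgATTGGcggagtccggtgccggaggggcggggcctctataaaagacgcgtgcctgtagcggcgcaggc
Hmgcs1, which edgeR did not call, held 3 CCAAT matches in these 250 bases. Among the called genes with a window, Mvk held 5, Mylip 3, Idi1 2 and Acat2 0, so these did not share a count of this motif. Fdft1 was also called but had no window.

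Of the 27 genes tested, 5 rose in HFD+allantoin and 0 fell at an adjusted p under 0.05 (edgeR's quasi-likelihood test with Benjamini-Hochberg adjustment over 12795 genes). The 5 were Acat2, Mvk, Idi1 and Fdft1 of the early steps and Mylip, a regulator of lipoprotein uptake. Called higher were 18.5% of the 27 genes against 11.3% of all genes tested, and called lower were 0% against 13.0%. At an unadjusted p under 0.05, 10 were higher and 3 lower (Hmgcs1, Ggps1 and Insig2), against 18.6% and 20.5% of all genes tested. DESeq2 called 8 higher and 2 lower, against 13.7% and 15.4% of all genes, and limma-voom 6 higher and 0 lower, against 11.9% and 12.5%. The log2 fold change was above 0 for 22 of the 27 (81.5%, against 48.2% of all genes tested), with a median of 0.39 against -0.03 over all genes tested. All 3 HFD+allantoin libraries were above all 3 HFD libraries for 9 genes (33.3%, against 22.4% of all genes tested) and below them for 2 genes, Ggps1 and Ebp (7.41%, against 21.9%). In whole liver, fewer cells of a type and less RNA per cell cannot be told apart. Since the labels do not say that the libraries came from separate animals, the p-values measure the spread between libraries. The count of genes called higher was 12 without HFD replicate 3 (13.4% of all genes tested were then called higher) and 4 without HFD replicate 2 (9.83%), and it was 1 without HFD+allantoin replicate 4 (4.51%) or 5 (3.48%) and 2 without replicate 6 (5.31%).

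**Figure D1:**
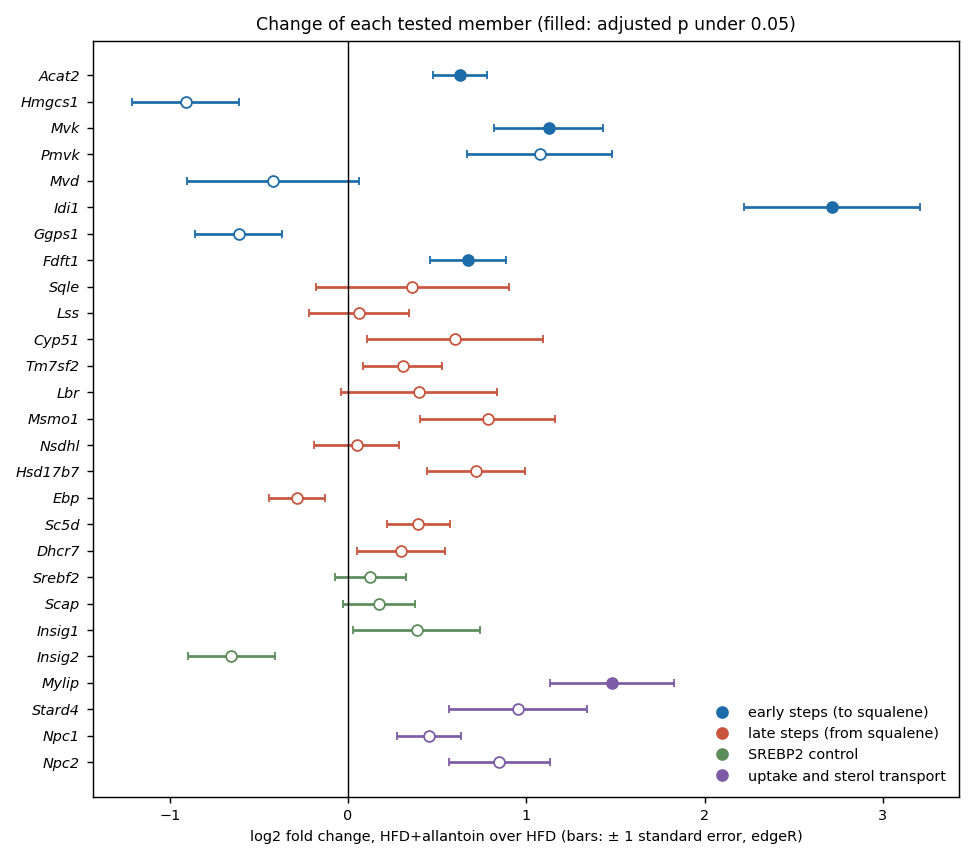
Log2 fold change (HFD+allantoin over HFD, x axis) of each of the 27 genes tested, with bars of 1 standard error (edgeR, n = 3 per group) and colours for early steps, late steps, SREBP2 control and transport. The filled points are the 5 genes with an adjusted p under 0.05, and they lie between 0.63 (Acat2) and 2.72 (Idi1).

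In the early steps, 4 of the 8 genes tested rose (50%, against 11.3% of all genes tested) and none of the others passed the threshold. The median log2 fold change was 0.65, against -0.03 over all genes tested. Of the 4, Acat2 is uncertain, because it shares near-identical sequence with Acat3, which fell. DESeq2 called 5 higher, adding Pmvk (adjusted p = 0.0383), and 1 lower, Hmgcs1 (adjusted p = 0.0150), against 13.7% and 15.4% of all genes. Calls by limma-voom were 4 higher and 0 lower, against 11.9% and 12.5%. The largest difference among the 27 genes was in Idi1, the isomerase that converts isopentenyl diphosphate to dimethylallyl diphosphate (chr13:8885501-8892451, plus strand, GRCm38). Its level was 3.06, 0.889 and 4.26 CPM in HFD replicates 1 to 3, and 12.8, 27.2 and 14.4 CPM in HFD+allantoin replicates 4 to 6. The lowest HFD+allantoin library was above the highest HFD library, and HFD+allantoin replicate 5 was the highest of all. The fold was 6.57 (log2 2.72 ± 0.49 SE, adjusted p = 0.00711, edgeR). The HFD levels rested on 28, 9 and 51 counts, and Idi1 was called higher under each of the 14 alternatives in which it was tested. The near-identical pseudogenes Gm35570 and Gm13502 reached at most 1.84 and 0.585 CPM in any library, and Idi1 plus Gm35570 still ran from 0.988 to 6.10 CPM in HFD and from 14.1 to 28.9 CPM in HFD+allantoin. Another near-identical gene, Gm48574, shares 323 exonic bases with Idi1 on the other strand, and its counts were not examined.

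Mvk, the kinase that phosphorylates mevalonate, was at 2.51, 3.95 and 4.93 CPM in HFD and at 7.84, 9.76 and 7.42 CPM in HFD+allantoin. The groups did not overlap, and the fold was 2.18 (log2 1.13 ± 0.31 SE, adjusted p = 0.0286). This call was lost without HFD replicate 2 (adjusted p = 0.0518) or without HFD+allantoin replicate 4, 5 or 6 (0.0795, 0.123 and 0.0673). Fdft1, the squalene synthase that joins farnesyl diphosphate units, was at 35.8, 41.6 and 55.3 CPM in HFD and at 63.3, 85.6 and 63.0 CPM in HFD+allantoin. Again the groups did not overlap, with a fold of 1.59 (log2 0.67 ± 0.21 SE, adjusted p = 0.0476), and this call was lost when any library but HFD replicate 3 was left out (adjusted p from 0.0868 to 0.183) and when the length and GC trend was removed (0.0766). Fdft1 shares 774 exonic bases with Ctsb on the other strand, which overlapped between groups (adjusted p = 0.357), and whether the counting used strand is not given in the sources used here.

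Acat2, the thiolase that forms acetoacetyl-CoA, was at 20.0, 21.8 and 23.1 CPM in HFD and at 31.5, 33.1 and 35.8 CPM in HFD+allantoin. Each group was narrow and they did not overlap (fold 1.55, log2 0.63 ± 0.15 SE, adjusted p = 0.0195), and the call was lost when any HFD+allantoin library was left out (adjusted p from 0.0617 to 0.0812). This value is uncertain, because Acat2 shares a stretch of 1477 near-identical bases with the neighbouring gene Acat3. Acat3 fell, from 178, 211 and 214 CPM to 135, 120 and 131 CPM (log2 -0.64 ± 0.16 SE, adjusted p = 0.0198), and the sum of both genes was lower in HFD+allantoin (153 to 167 CPM) than in HFD (197 to 237 CPM).

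Pmvk, the next kinase of the mevalonate branch, was at 2.07, 3.95 and 6.94 CPM in HFD and at 9.53, 11.1 and 6.95 CPM in HFD+allantoin. HFD replicate 3 and HFD+allantoin replicate 6 nearly touched, and the difference did not pass the threshold (log2 1.07 ± 0.41 SE, adjusted p = 0.0828). Mvd, the decarboxylase that yields isopentenyl diphosphate, was at 6.66, 2.67 and 13.4 CPM in HFD and at 5.21, 6.63 and 5.20 CPM in HFD+allantoin. Here the HFD libraries enclosed all 3 HFD+allantoin libraries (log2 -0.42 ± 0.48 SE, adjusted p = 0.556).

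Hmgcs1, the synthase that makes HMG-CoA, lay in the opposite direction. It was at 232, 103 and 259 CPM in HFD and at 101, 105 and 109 CPM in HFD+allantoin. HFD replicate 2 was inside the HFD+allantoin range and the other HFD libraries were above it (log2 -0.91 ± 0.30 SE, adjusted p = 0.0556). Leaving out HFD replicate 2 made Hmgcs1 a gene called lower, at a log2 fold change of -1.22 (adjusted p = 0.00563). Hmgcs1 was not called when any other library was left out (adjusted p from 0.110 to 0.158, edgeR). Ggps1, which makes geranylgeranyl diphosphate on a side branch, was at 12.1, 9.09 and 8.44 CPM in HFD and at 5.79, 7.69 and 5.80 CPM in HFD+allantoin. Its groups did not overlap, but the difference missed the threshold (log2 -0.61 ± 0.25 SE, adjusted p = 0.0984). Ggps1 shares 257 exonic bases with Arid4b on the other strand, which was called lower (log2 -1.15, adjusted p = 0.00891). Fdps, the farnesyl diphosphate synthase, was not tested. It had 43, 1 and 10 counts in HFD and 3, 18 and 6 counts in HFD+allantoin, with 5 near-identical genes in the annotation among which reads could be divided.

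**Figure D2:**
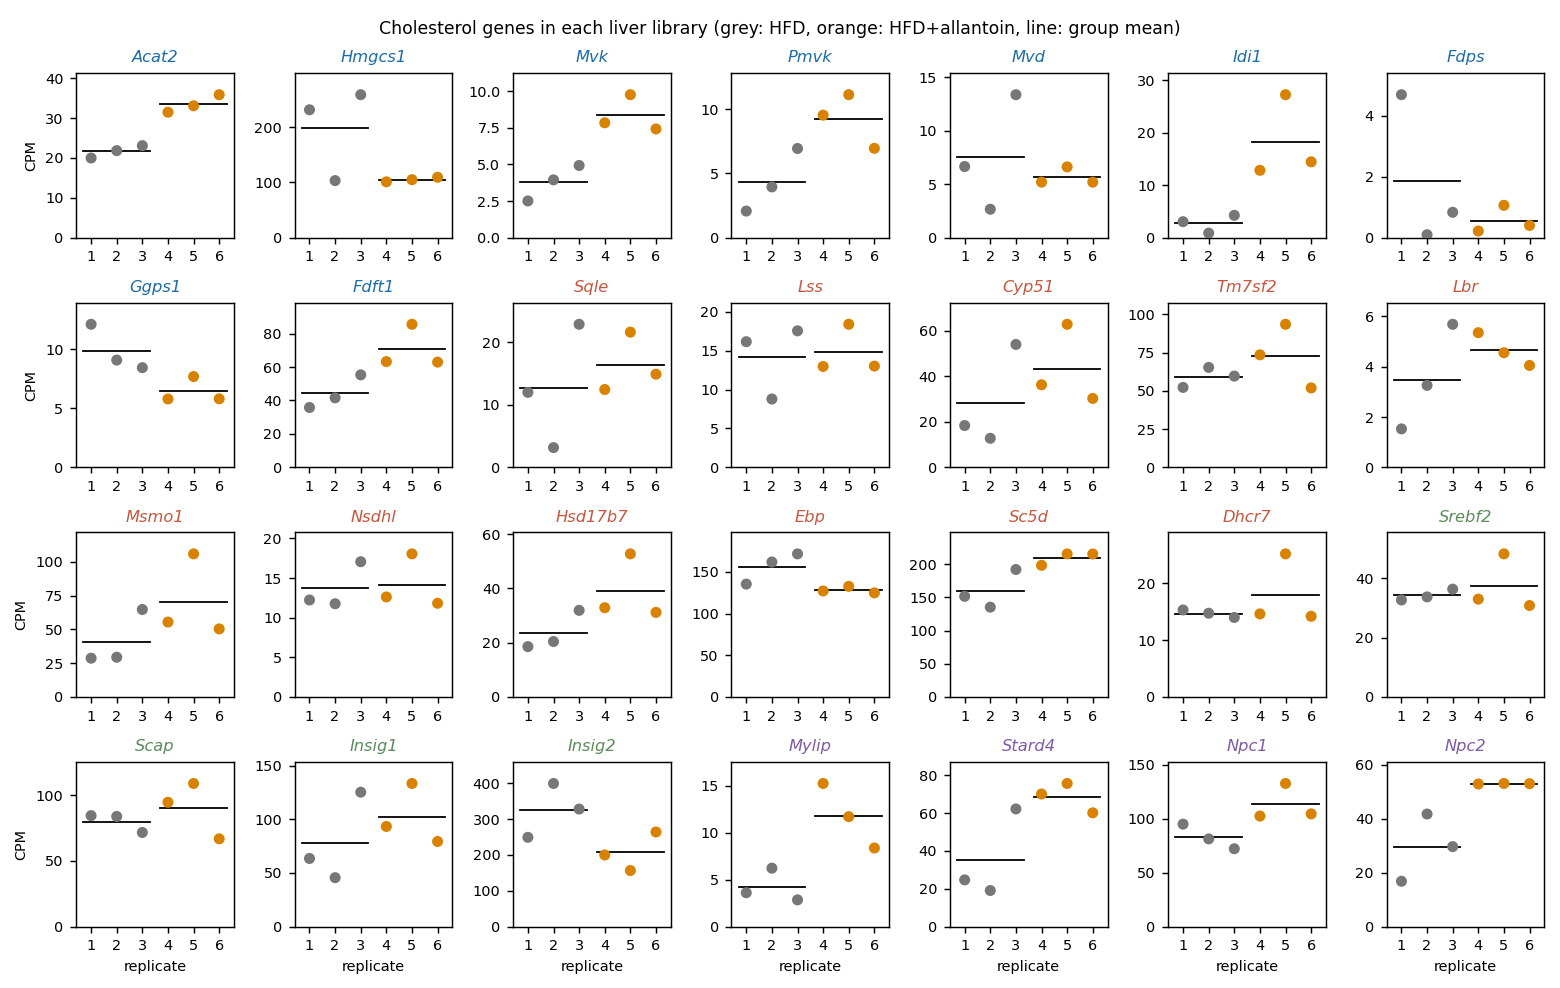
TMM-scaled level in CPM (y axis, from 0, a separate scale per panel) of each of the 28 genes in each library (x axis, replicates 1 to 3 HFD in grey, 4 to 6 HFD+allantoin in orange), with lines at the group means and gene names coloured as early (blue), late (red), control (green) and transport (purple). Idi1 runs from 0.889 to 4.26 CPM in HFD and from 12.8 to 27.2 CPM in HFD+allantoin, whereas Hmgcs1 in HFD replicate 2 (103 CPM) lies among the HFD+allantoin libraries.

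Within a library, where scaling cancels, the difference between Idi1 and Hmgcs1 was wide. Idi1 had 1.32, 0.860 and 1.65 counts per 100 Hmgcs1 counts in HFD and 12.7, 25.9 and 13.2 in HFD+allantoin. The group means were 1.28 ± 0.396 and 17.3 ± 7.49 (SD, n = 3 each), a ratio of 13.5. Fdft1 moved less against Hmgcs1, at 15.5, 40.2 and 21.4 counts per 100 in HFD and 62.5, 81.5 and 57.5 in HFD+allantoin. These pairs were picked with the values known, so they are given without a test. They describe Idi1, Fdft1 and Hmgcs1 alone and do not tell which gene of a pair moved.

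In the late steps, none of the 11 genes was called by edgeR in either direction, against 11.3% higher and 13.0% lower of all genes tested. The unadjusted p was under 0.05 in 1, Hsd17b7 (higher), and DESeq2 and limma-voom also called 0. The median log2 fold change was 0.36, and 10 of the 11 values were above 0 (90.9%, against 48.2% of all genes tested). With library size only, the median was 0.75, beside 0.38 for all genes. Sqle, the epoxidase that opens this branch, was at 12.01, 3.16 and 22.9 CPM in HFD and at 12.5, 21.7 and 14.9 CPM in HFD+allantoin. The HFD libraries spanned the whole HFD+allantoin range (log2 0.36 ± 0.54 SE, adjusted p = 0.664). Lss, the cyclase that forms lanosterol, was at 16.2, 8.79 and 17.6 CPM in HFD and at 13.0, 18.4 and 13.0 CPM in HFD+allantoin, and its log2 fold change was 0.06 ± 0.28 SE (adjusted p = 0.892).

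Among genes of the demethylation steps, Cyp51, Msmo1 and Hsd17b7 had larger log2 fold changes, and Nsdhl did not (log2 0.05, adjusted p = 0.903). Cyp51, the lanosterol demethylase, was at 18.3, 12.7 and 53.9 CPM in HFD and at 36.2, 62.8 and 30.2 CPM in HFD+allantoin. HFD replicate 3 alone lay inside the HFD+allantoin range (log2 0.60 ± 0.50 SE, adjusted p = 0.404). Msmo1, which oxidises the methyl groups at carbon 4 of the sterol, was at 28.7, 29.4 and 64.8 CPM in HFD and at 55.5, 106 and 50.4 CPM in HFD+allantoin, the same arrangement (log2 0.78 ± 0.38 SE, adjusted p = 0.161). Hsd17b7, the ketosteroid reductase of this step, was at 18.6, 20.4 and 31.9 CPM in HFD and at 32.9, 52.8 and 31.2 CPM in HFD+allantoin (log2 0.72 ± 0.27 SE, adjusted p = 0.0844). Without HFD replicate 3, Cyp51, Msmo1, Hsd17b7 and Sc5d were called higher and the late median was 0.55, while without HFD+allantoin replicate 5 it was 0.11.

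Sc5d, the desaturase that acts near the end of the pathway, was at 152, 135 and 192 CPM in HFD and at 198, 215 and 215 CPM in HFD+allantoin, without overlap (log2 0.39 ± 0.18 SE, adjusted p = 0.132). Ebp, the sterol isomerase, was the only late gene below 0, at 135, 162 and 172 CPM in HFD and 127, 133 and 125 CPM in HFD+allantoin. Its groups did not overlap either (log2 -0.29 ± 0.16 SE, adjusted p = 0.214), and its sign turned to 0.12 when only library size was used for scaling. The sterol reductases Tm7sf2 (log2 0.31, adjusted p = 0.344), Lbr (0.40, 0.539) and Dhcr7 (0.30, 0.403) and the dehydrogenase Nsdhl (0.05, 0.903) overlapped between groups. For Dhcr7, 5 libraries lay between 14.0 and 15.3 CPM and HFD+allantoin replicate 5 was at 25.1 CPM.

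The contrast of early with late steps did not separate the groups by more than a small margin. The mean log2 CPM of the early genes minus that of the late genes was -0.98, -1.15 and -1.10 in HFD and -0.86, -0.97 and -0.76 in HFD+allantoin, a difference of 0.21. With Fdft1 counted as late it was 0.18, and without Ggps1 0.39. Without Idi1 it was -0.10, so the sign of the contrast rested on that gene.

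**Figure D3:**
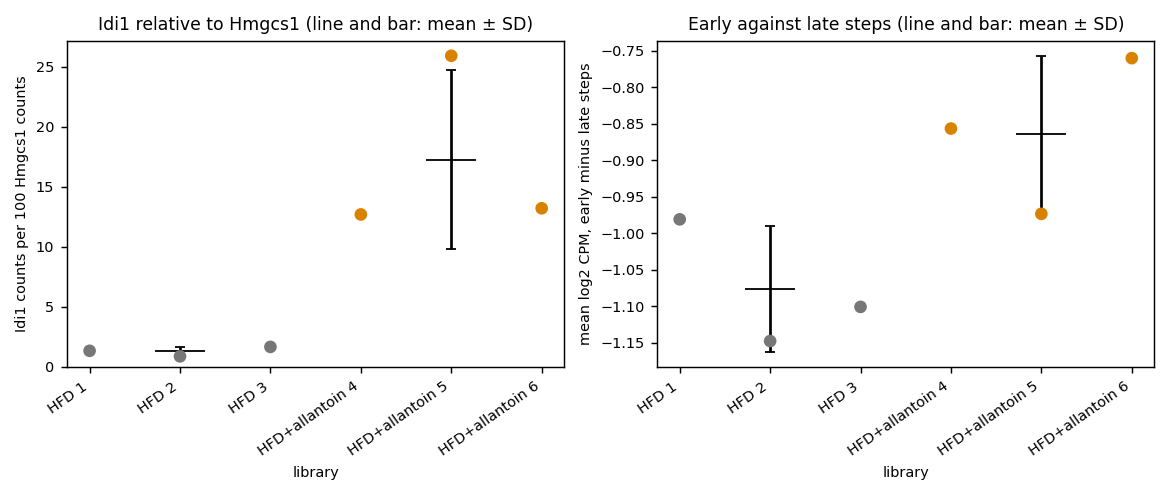
Left: Idi1 counts per 100 Hmgcs1 counts (y axis) in each library; right: mean log2 CPM of the early genes minus that of the late genes (y axis, not from 0), with lines and bars at the group mean ± SD (n = 3). The ratio is 0.860 to 1.65 in HFD and 12.7 to 25.9 in HFD+allantoin, whereas the early minus late values nearly meet (-0.98 in HFD replicate 1 and -0.97 in HFD+allantoin replicate 5).

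Among the genes of SREBP2 control, none of the 4 was called by edgeR (unadjusted p under 0.05 in 1, Insig2, lower), while DESeq2 called Insig2 lower and limma-voom called 0. Srebf2, which encodes SREBP2, was at 32.6, 33.7 and 36.3 CPM in HFD and at 32.9, 48.2 and 30.8 CPM in HFD+allantoin. Only HFD+allantoin replicate 5 was outside the narrow HFD range by more than a few CPM, and the log2 fold change was 0.12 ± 0.20 SE (adjusted p = 0.680). Scap, the escort, was at 84.5, 83.8 and 71.6 CPM in HFD and at 94.6, 109 and 66.8 CPM in HFD+allantoin (log2 0.17 ± 0.20 SE, adjusted p = 0.567). These are transcript levels and carry no information on the cleavage of SREBP2.

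The INSIG genes, whose products retain SCAP in the endoplasmic reticulum, lay in opposite directions. Insig1, itself a target of SREBP2, was at 63.4, 45.5 and 125 CPM in HFD and at 93.3, 133 and 79.2 CPM in HFD+allantoin (log2 0.38 ± 0.36 SE, adjusted p = 0.460). Insig2, whose liver form is known to vary with insulin and bile acid signals, was at 249, 400 and 328 CPM in HFD and at 200, 156 and 264 CPM in HFD+allantoin (log2 -0.65 ± 0.24 SE, adjusted p = 0.0788). Both overlapped between groups, Insig1 through HFD replicate 3 and Insig2 through HFD replicate 1 and HFD+allantoin replicate 6. Insig1 counts were 25.4%, 11.4% and 38.1% of Insig2 counts in HFD and 46.6%, 85.2% and 30.0% in HFD+allantoin. Levels were also scaled per kilobase of each gene's principal annotated transcript. On this scale Insig2 had the highest level of the 28 genes in both groups. Insig2 was at 121 ± 27.9 CPM per kb in HFD and 76.7 ± 20.1 in HFD+allantoin (mean ± SD, n = 3). In HFD+allantoin it did not differ beyond its spread from the next, Ebp, at 73.6 ± 2.31 CPM per kb. On the same scale Idi1 was the lowest of the 28 in HFD (0.904 ± 0.565), within the spread of the next, Lbr (0.995 ± 0.595) and Fdps (1.36 ± 1.79), and ranked 20 in HFD+allantoin (6.0 ± 2.60).

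In uptake and transport, all 4 genes had log2 fold changes above 0, against 48.2% of all genes tested, and their median was 0.90. Mylip was called higher (25% of the 4, against 11.3% of all genes tested). DESeq2 also called Stard4 (adjusted p = 0.0405) and Npc2 (0.0204) higher, and limma-voom Npc2 (0.0374). Mylip, a sterol-induced ubiquitin ligase that marks lipoprotein receptors for degradation and is a target of the LXR nuclear receptors rather than of SREBP2, was at 3.60, 6.22 and 2.84 CPM in HFD and at 15.2, 11.7 and 8.37 CPM in HFD+allantoin. The groups did not overlap, and the fold was 2.79 (log2 1.48 ± 0.35 SE, adjusted p = 0.0174). The call was lost without HFD+allantoin replicate 4 (adjusted p = 0.0769) or 5 (0.0647).

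Stard4, a soluble carrier of cholesterol between membranes and a target of SREBP2, was at 24.7, 19.1 and 62.2 CPM in HFD and at 70.1, 75.7 and 60.1 CPM in HFD+allantoin. HFD replicate 3 again lay inside the other group's range (log2 0.96 ± 0.39 SE, adjusted p = 0.101). Npc1 and Npc2 encode the membrane and soluble proteins that pass cholesterol out of lysosomes. Npc1 was at 94.98, 81.3 and 72.1 CPM in HFD and at 102, 133 and 104 CPM in HFD+allantoin, without overlap (log2 0.45 ± 0.18 SE, adjusted p = 0.0970). Npc2 was at 16.8, 41.8 and 29.7 CPM in HFD and at 52.9, 53.1 and 53.1 CPM in HFD+allantoin, also without overlap (log2 0.85 ± 0.28 SE, adjusted p = 0.0573). Npc2 was called higher without HFD replicate 2 (adjusted p = 0.0165) and was not called when any other library was left out.

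Libraries of the same group also differed in these genes. HFD replicate 3 was at least 2-fold above HFD replicate 2 for 8 of the 27 genes (29.6%, against 6.53% of all genes tested), namely Hmgcs1, Mvd, Idi1, Sqle, Cyp51, Msmo1, Insig1 and Stard4. HFD replicate 2 was the lowest and replicate 3 the highest HFD library for 10 of 27 genes (37.0%, against 14.0%), 8 of them among the 19 enzymes tested. HFD+allantoin replicate 5 was the highest of its group for 22 of 27 genes (81.5%, against 34.7%). The libraries were singled out after their values were seen, so these shares are descriptions. HFD replicate 2 was also the library with adipocyte markers and replicate 3 that with the highest cholangiocyte markers, and the part of either in this pattern was not tested.

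The spread among HFD libraries was wider than among HFD+allantoin libraries for 19 of 27 genes (70.4%), close to the 74.1% of all genes tested. The median SD of log2 CPM was 0.47 in HFD and 0.33 in HFD+allantoin for the 27 genes, and 0.35 and 0.20 for all genes. For the early steps it was 0.60 and 0.22, with the HFD spread wider for 8 of 8 genes, and for the late steps 0.42 and 0.40, with it wider for 7 of 11.

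**Figure D4:**
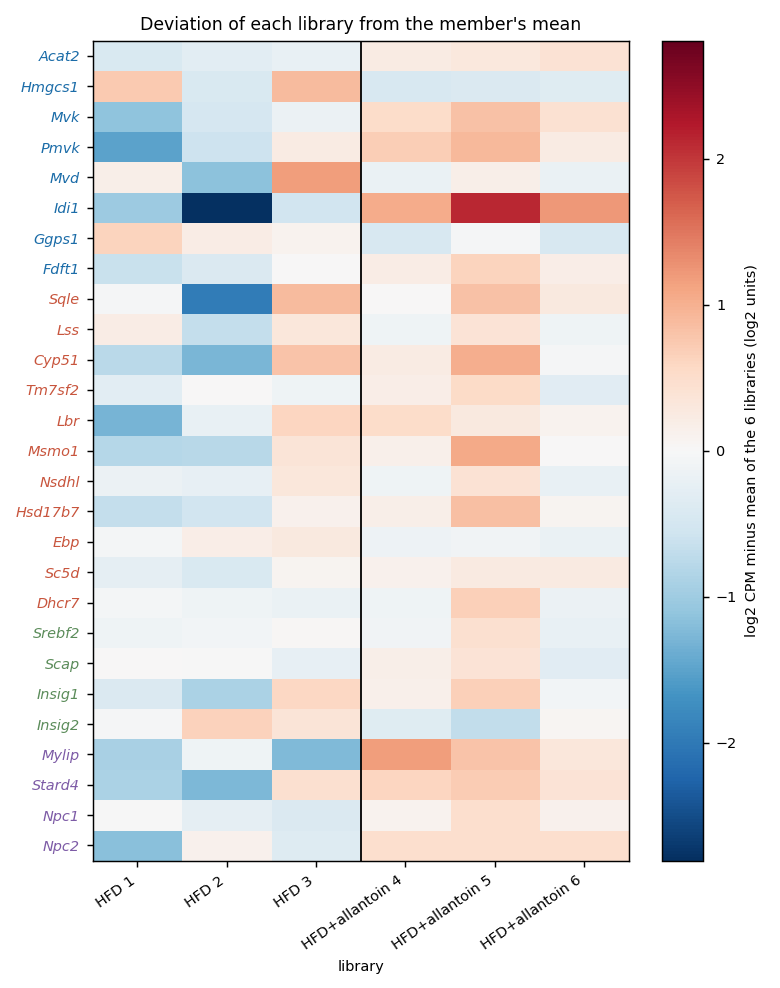
Colour gives log2 CPM of each tested gene (27 rows) in each library (6 columns, the groups separated by a line) minus the mean of the 6 libraries, red above and blue below. HFD replicate 2 is the lowest of its group for 10 genes, HFD replicate 3 the highest for 19, and HFD+allantoin replicate 5 the highest of its group for 22 of the 27 genes. Among all 12795 genes tested, the same counts are 3807, 4292 and 4436.

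Around these genes, related lists from general knowledge showed the following counts against the same 11.3% called higher and 13.0% called lower. Of 8 genes of SREBP processing and sterol sensing, 1 rose, Rnf139, a ubiquitin ligase of the endoplasmic reticulum (14.8 ± 2.3 to 27.8 ± 3.11 CPM, mean ± SD, n = 3 each, adjusted p = 0.00990), and the list's median log2 fold change was 0.36. Of 11 genes that use isoprenoids made on the early path, 1 rose, Icmt, which methylates prenylated proteins (13.9 ± 3.49 to 32.5 ± 2.13 CPM, adjusted p = 0.00578), with a list median of 0.30. Of 10 genes of fatty acid synthesis, which SREBP1 governs, 4 rose (Srebf1, Acacb, Acly and Acss2) with a list median of 0.68. The other 6 were not called, and Fasn lay below 0 (log2 -0.19, adjusted p = 0.688). Srebf1, which encodes SREBP1, went from 49.6 ± 7.14 to 77.2 ± 5.41 CPM (adjusted p = 0.0253), beside the 34.2 ± 1.88 and 37.3 ± 9.47 CPM of Srebf2.

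Sterol uptake, storage and transport gave 5 genes higher and 2 lower of 17 tested, with a median of 0.37. Scarb2, a lysosomal membrane protein, rose from 49.0 ± 14.8 to 147 ± 8.53 CPM (adjusted p = 0.00403). Lipa, the lysosomal acid lipase that frees cholesterol from its esters, rose from 67.1 ± 17.9 to 154 ± 4.66 CPM (adjusted p = 0.00584), and Nceh1, a neutral cholesterol ester hydrolase, rose from 24.3 ± 3.70 to 52.3 ± 3.89 CPM (adjusted p = 0.00437). Gramd1a and Gramd1c, of the family that carries cholesterol from the plasma membrane to the endoplasmic reticulum, fell from 18.7 ± 3.59 to 8.24 ± 0.957 CPM and from 63.3 ± 23.8 to 20.6 ± 2.14 CPM (adjusted p = 0.00638 and 0.00468). Of 4 genes tested for oxysterol sensing, Cyp7b1, an oxysterol hydroxylase, fell from 300.5 ± 125 to 133 ± 45.7 CPM (adjusted p = 0.0372) and none of the others passed. Macrophages also express lysosomal genes such as Lipa and Npc2. Of 5 macrophage markers, 3 were called higher in HFD+allantoin, and Clec4f and Cd68 were not (adjusted p = 0.489 and 0.987, edgeR). The part of macrophages in these values was not tested.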

How the data were processed

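Liver RNA was sequenced in 3 HFD and 3 HFD+allantoin libraries (SMARTER mRNA-Seq kit, Illumina HiSeq). The authors deposited raw read counts per gene made from filtered reads. Builds GRCm38 and mm10 are named in the submitters' processing notes, and the aligner and counter are not given in the sources used here. Of 54961 entries, 429 without an Ensembl identifier (0.197% to 0.306% of counts) were left out, and no sample column was unused.

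Counts were tested with edgeR 4.0.16 in R 4.3.3 (filterByExpr, TMM, quasi-likelihood test, group as the only term, Benjamini-Hochberg adjustment over 12795 genes, threshold 0.05). Standard errors were derived from the F statistic. Log2 CPM used a prior count of 2. The method was tested on simulated data, drawn without the groups' difference in mitochondrial counts or scaling factors, so that test does not cover this difference. Positions, exons and principal transcript lengths came from GENCODE M21, near-identical transcripts (95% identity over at least 200 bases) from BLAST 2.17.0, and promoters from RefSeq (GRCm38.p6). Alternatives were DESeq2 1.42.0, limma-voom 3.58.1, RLE, upper-quartile and library-size scaling, other filters, removal of a length and GC trend, stricter thresholds, other memberships of the early steps, a 150-base promoter window and leaving out each library.

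The genes, lists and tests were chosen with earlier results of these data known. All 28 genes are named, and of each related list at most the 5 called genes with the smallest p. Fasn, which was not called, is named as well.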

Additional observations from a re-analysis of the deposited data

How the results depend on the processing

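Of the 27 genes tested, 19 kept their direction under all 15 refitted alternatives, and Idi1 kept it under the 14 in which it was tested. The count called higher (5) became 8 with DESeq2, 11 with library size only or with no filter on low counts, 1 at an adjusted p under 0.01 and 3 with an absolute log2 fold change of at least 1, and ran from 1 to 12 when each library was left out. Fits without any HFD+allantoin library also called fewer genes in all (460 to 702 higher against 1446). The count called lower (0) became 2 with DESeq2, the length and GC trend removed or no filter, 1 with upper-quartile normalization, and 0 to 1 when each library was left out. With library size only, the medians were 0.77 for all 27 genes, 1.05 for the early and 0.75 for the late steps, beside 0.38 for all genes. The early minus late difference of 0.21 was 0.39 without Ggps1 and -0.10 without Idi1 (chosen after seeing the data).

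Signs turned for Ebp with library size only (0.12) and, with the length and GC trend removed, for Lss (-0.14) and Nsdhl (-0.011). When each library was left out, log2 fold changes ran from -0.82 to 0.29 for Mvd, -0.10 to 1.12 for Sqle, -0.19 to 0.25 for Lss, -0.16 to 0.24 for Nsdhl, -0.020 to 0.44 for Dhcr7 and -0.10 to 0.25 for Srebf2. The cause was not tested. In the 150 bases before the start, CCAAT and GGGCGG were each found in 20 of 23 genes. Depth limits Fdps, at 43 counts or fewer, and Idi1, at 9 counts in HFD replicate 2. Counts in HFD replicates 1 to 3 were also low for the called genes Mvk (23, 40 and 59) and Mylip (33, 63 and 34). The same holds for Pmvk (19, 40 and 83), Lbr (14, 33 and 68) and, in HFD replicate 2, Mvd (27) and Sqle (32). No paired analysis was possible because the groups share no replicate numbers.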
